A study of Mus musculus with 10 samples.

Results

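Genes for the uptake and oxidation of fatty acids were compared in 3 pieces of the mouse heart: right ventricle (RV), left ventricle (LV) and ventricular septum (Septum). The 38 genes were chosen by symbol, through the RefSeq accession that the array files give for each probe. No cut on measured values was used for the choice, although earlier results of these data were known. The 38 genes had 56 probes among 32994 probes with a symbol, and 37 of the 38 passed the filter on dim probes, out of 14651 of 22911 genes. All 10 arrays held RNA of C57BL/6N mice with no treatment named in the labels: 4 RV, 3 LV and 3 Septum arrays, each from 1 tissue sample. The design text speaks of different individuals for each experiment, the labels tie no sample to an animal, and the age and sex of the mice are not given in the sources used here. The p-values therefore measure the spread between these samples, which may be in part technical. The question of the study behind the arrays was what sets RV tissue apart at the RNA level, and here it is asked of 1 pathway.

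The adult heart draws most of its energy from long-chain fatty acids. Lipoprotein lipase frees them from circulating triglycerides, CD36 and fatty acid binding proteins carry them into and through the cell, and acyl-CoA synthetases trap them as thioesters. The carnitine shuttle moves the acyl groups into mitochondria, where dehydrogenases, hydratases and thiolases shorten them in the rounds of beta-oxidation and hand electrons to the respiratory chain through the electron transfer flavoprotein. Transcription of many of these genes is driven by PPARα, a nuclear receptor that binds with RXR partners and is assisted by the coactivator PGC-1α.

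A level here is the log2 of a probe's processed signal after subtraction of the 75th percentile of its array, which therefore sits at 0, and levels were compared between arrays for the same probe only. Each of the 37 genes was well above background on all 10 arrays. The exception was Slc27a6, a fatty acid transport protein, whose probe was well above background on 0 of 10 arrays and was not tested. Between 53.7% and 64.0% of the spots were well above background on an array, and no spot was saturated. The markers of heart muscle held for every array, with all 13 cardiomyocyte genes of the list well above background on each. The arrays lay on 2 slides, each scanned on 1 day, with replicates 1 and 2 of every region on slide 1 and the rest on slide 2. Of the 37 genes, 12 differed between the slides within regions (6 higher and 6 lower on slide 2), against 45.3% of all genes, so the differences between regions are also given with the slide as a block. In whole tissue, fewer cells of a type and less RNA per cell cannot be told apart.

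Between RV and LV, 2 of the 37 genes passed the test (limma, adjusted p below 0.05). Ucp3, a mitochondrial carrier of the uncoupling protein family, was higher in RV, and Cpt1b, the muscle form of the outer carnitine palmitoyltransferase, was lower in RV. Over all genes tested, 3.13% were called higher and 1.84% lower in RV, so 1 gene in each direction out of 37 was near the background. The differences of the pathway were small and mostly of 1 sign: 26 of 37 genes had a lower mean in RV than in LV, that is 70.3% against 60.6% of all genes. Their median log2 difference was -0.14 beside -0.05 over all genes, and their differences ran from -0.47 for Cpt1b to 0.63 for Ucp3. On 9 genes every RV array lay below every LV array (24.3%, against 13.4% of all genes), namely Cd36, Lpl, Acsl1, Cpt1b, Acadl, Acadvl, Hadhb, Echs1 and Etfa. On Ucp3 and Acsl5 every RV array lay above every LV array (5.41%, against 9.17% of all genes).

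More genes passed once the slide entered the model. With the slide as a block, 7 of the 37 genes were called lower in RV than in LV (18.9%, against 12.5% of all genes) and 2 higher (5.41%, against 8.79%). The 7 were Cd36, Acsl1, Cpt1b, Acadl, Acads, Hadhb and Acot2, and the 2 were Acsl5 and Ucp3. With the replicate number as a block, which leaves out RV array 4 because no other array carries its number, 7 were called lower (against 10.6% of all genes) and 1 higher (against 7.26%). This block called Etfdh lower (adjusted p = 0.0435), whereas Cd36 (0.0724) and Acsl5 (0.0807) did not pass. Within slides, the RV to LV difference was below 0 on both slides for 24 genes, above 0 on both for 6 and of opposite sign for 7. The median was -0.10 on slide 1 and -0.15 on slide 2, beside -0.03 and -0.06 over all genes.

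**Figure D1:**
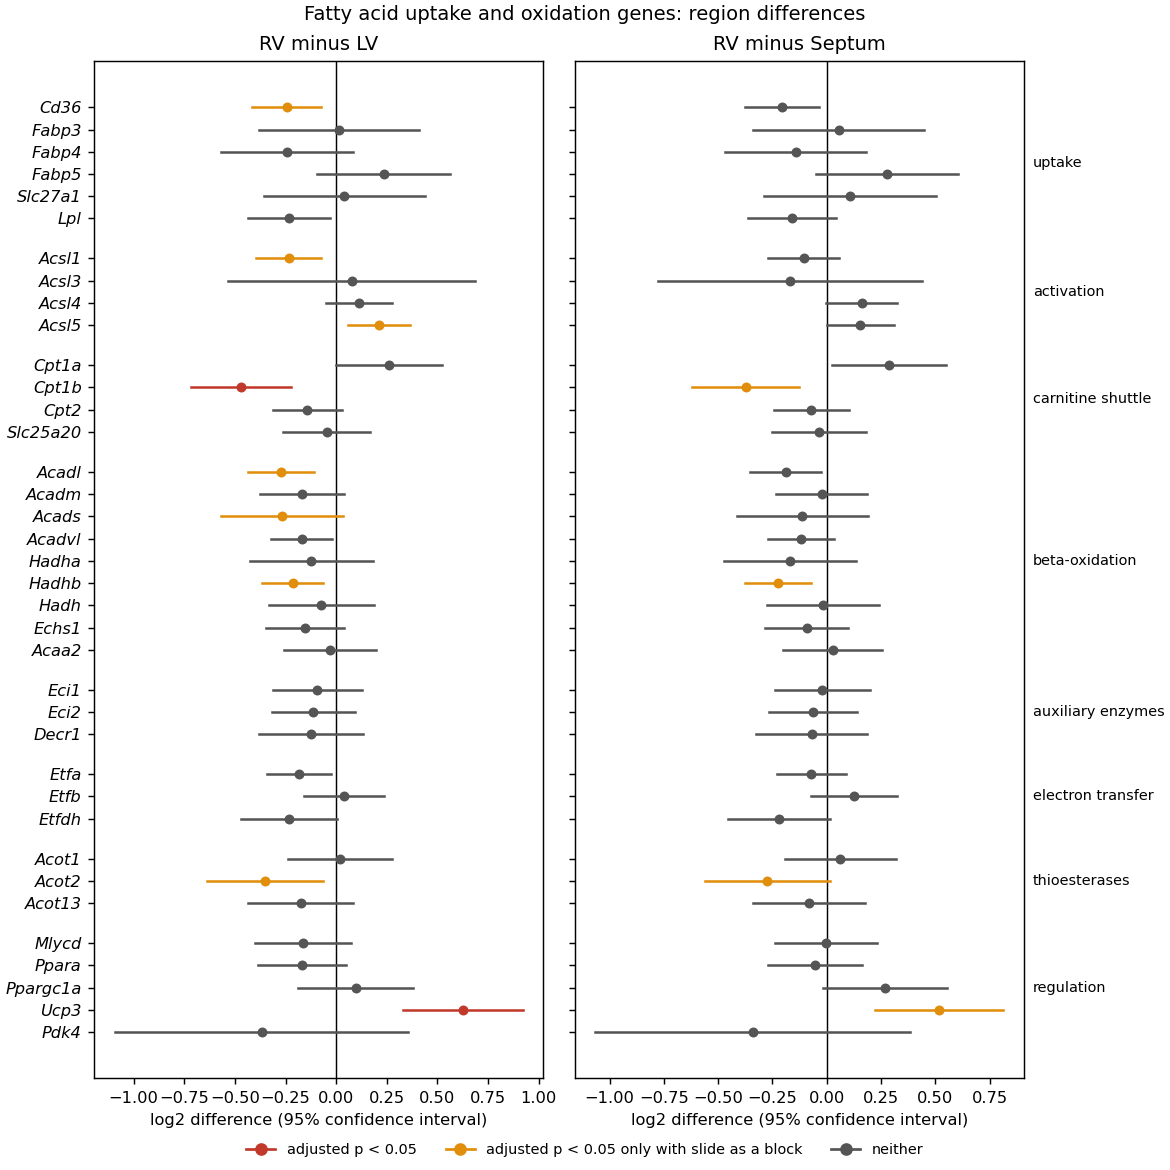
Log2 difference between RV and LV (left) and between RV and Septum (right) for the 37 genes, ordered by role; points are estimates of the limma fit to 4 RV, 3 LV and 3 Septum arrays and bars are 95% confidence intervals. Most points lie left of 0, Cpt1b and Ucp3 pass the test against LV in opposite directions, and 7 more genes pass with the slide as a block, 5 of them also with the replicate block.

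Among the genes that regulate fuel use, Ucp3 had the largest difference between RV and LV. The UCP3 protein sits in the inner mitochondrial membrane and its gene is a known PPAR target in muscle. Its log2 level in RV was 0.76, 0.99, 0.74 and 0.80. In LV it was -0.0032, 0.42 and 0.16. In Septum it was 0.37, 0.48 and 0.06. All 4 RV arrays lay above all 6 others, while LV and Septum overlapped. RV exceeded LV by 0.63 ± 0.13 (SE, 95% interval 0.33 to 0.92), a 1.54-fold difference (limma, adjusted p = 0.0341), and the difference was 0.67 on slide 1 and 0.60 on slide 2. Against Septum it was 0.52 ± 0.13 (adjusted p = 0.0922), which passed with the slide as a block (0.55, adjusted p = 0.0248) and with the replicate block (adjusted p = 0.0291). The call against LV was lost when RV array 1, 2, 3 or 4, LV array 1 or 3 or Septum array 1 was left out (differences 0.53 to 0.66, adjusted p = 0.0525 to 0.125), and the 2 slides taken alone gave adjusted p = 0.0971 and 0.120.

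Because Ucp3 carried the largest difference, the 250 bases before its start in RefSeq (GRCm38.p6, chr7:100472741-100472990, plus strand) are shown, with AGGTCA, the hexamer that PPAR and other nuclear receptors bind, in capitals.
Ucp3 upstream: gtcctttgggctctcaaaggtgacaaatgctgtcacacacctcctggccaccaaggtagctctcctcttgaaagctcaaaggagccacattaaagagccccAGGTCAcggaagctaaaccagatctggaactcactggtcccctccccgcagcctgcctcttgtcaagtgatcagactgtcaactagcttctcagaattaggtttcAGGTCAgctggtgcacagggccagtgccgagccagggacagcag
The hexamer was found at 2 places in this window. Searched on both strands, it was in 6 of the 33 windows of this length that the table holds for 30 of the 38 genes (18.2%, Acadm, Acadvl, Cd36, Cpt1a, Echs1 and Ucp3) and in 14.0% of all 32851 windows. A direct repeat of it with 1 base between (AGGTCANAGGTCA, which contains the hexamer) was in 0 of the 33 windows and in 0.0335% of all. These are matches of letters and no measure of binding.

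The other regulators showed no call between RV and LV. Pdk4, the kinase that shuts off pyruvate dehydrogenase and so spares glucose, varied most of the 37 genes among the RV arrays and among the LV arrays, with SDs of 0.50 and 0.49, while Acsl3 varied most in Septum (SD 0.64). It was 3.27, 4.34, 3.30 and 3.74 in RV and 3.47, 4.26 and 4.36 in LV, with overlapping groups and a 95% interval of the difference from -1.09 to 0.36. In Septum it was 3.48, 4.24 and 4.28. The arrays with the number 1 were low and those with the number 2 were high in every region. Those with the number 3 were not alike, at 3.30 in RV beside 4.36 in LV and 4.28 in Septum. The RV to LV difference of Pdk4 was -0.06 on slide 1 and -0.84 on slide 2. Ppara, which encodes PPARα, differed by -0.17 (interval -0.38 to 0.05), Ppargc1a, which encodes PGC-1α, by 0.10 (-0.19 to 0.38), and Mlycd, the decarboxylase that removes the carnitine shuttle inhibitor malonyl-CoA, by -0.16 (-0.40 to 0.07).

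In the carnitine shuttle, the 2 forms of the outer transferase had differences of opposite sign. CPT1 is the committed step of long-chain fatty acid entry into mitochondria, and Cpt1b is its main form in heart muscle. Cpt1b measured 4.69, 4.67, 4.57 and 4.79 in RV. It measured 5.05, 5.07 and 5.33 in LV. In Septum the levels were 4.88, 5.03 and 5.25. Each RV array lay below each LV and Septum array, the latter 2 groups overlapping. The RV to LV difference was -0.47 ± 0.11 (SE, interval -0.72 to -0.22), 1.39-fold lower in RV (limma, adjusted p = 0.0485). It was -0.38 on slide 1 and -0.65 on slide 2, and passed with the slide as a block (-0.50, adjusted p = 0.00809) and with the replicate block (-0.51, adjusted p = 0.0265). Against Septum the difference was -0.37 (adjusted p = 0.146), called with the slide as a block (-0.40, adjusted p = 0.0257) and not with the replicate block (adjusted p = 0.0626). Leaving out any 1 array other than Septum array 3 ended the call against LV (differences -0.52 to -0.38, adjusted p = 0.0515 to 0.138), and so did quantile normalization (-0.41, adjusted p = 0.0945), scaling by the median (-0.49, adjusted p = 0.135) and scaling by the probes detected on all arrays (-0.42, adjusted p = 0.0563).

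Cpt1a, the form that prevails in liver, ran the other way without passing the test. It was 1.89, 2.05, 1.77 and 2.08 in RV, 1.47, 1.78 and 1.81 in LV and 1.52, 1.71 and 1.75 in Septum. RV overlapped LV through RV array 3 and lay above all Septum arrays. The difference was 0.26 (interval -0.0005 to 0.52, adjusted p = 0.253) against LV and 0.29 (0.03 to 0.55, adjusted p = 0.305) against Septum. Cpt2, the inner transferase, differed from LV by -0.14 (-0.31 to 0.03), and its second probe was called with the slide as a block (-0.22, adjusted p = 0.0276) where the brighter one was not (-0.13, adjusted p = 0.143). Slc25a20, the carnitine-acylcarnitine carrier between the transferases, differed by -0.05 (-0.26 to 0.17).

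**Figure D2:**
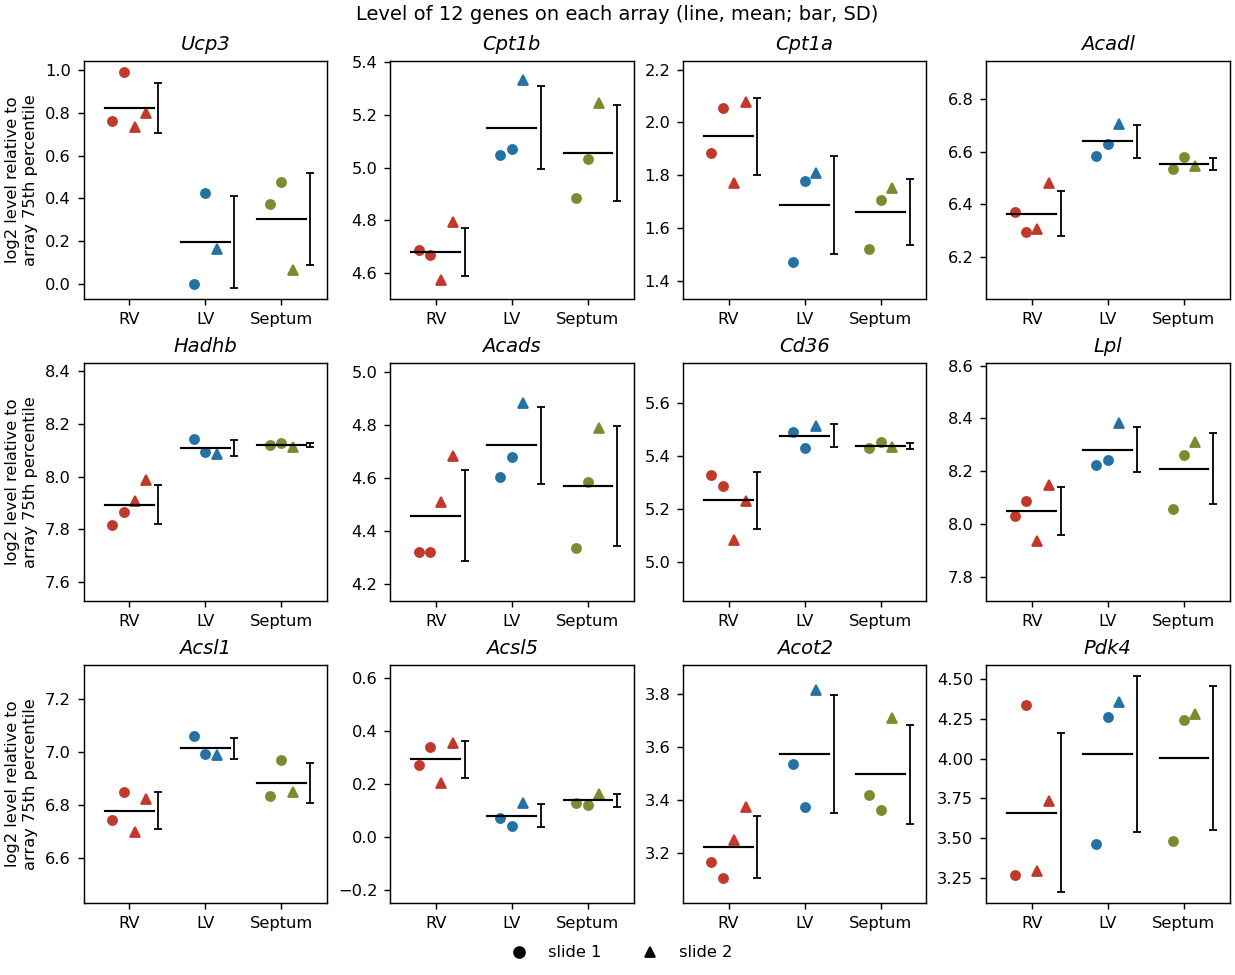
Log2 level, relative to the array's 75th percentile, of 12 of the genes on each array, by region and slide; each panel has its own vertical range, lines are means and bars are SDs (n = 4 RV, 3 LV, 3 Septum). Ucp3 and Acsl5 lie higher and Cpt1b, Acadl, Hadhb, Cd36, Lpl and Acsl1 lower on all RV than on all LV arrays, whereas Pdk4 is spread widely within each region.

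The enzymes of the beta-oxidation spiral had a lower mean in RV than in LV for all 9 genes, with a median difference of -0.17 and a range from -0.27 to -0.03, beside 60.6% of all genes with the lower mean in RV. The sign of Acaa2 turned with the scaling by the probes detected on all arrays. None passed the test without a block. With the slide as a block 3 were called lower (against 12.5% of all genes), and all 3 also with the replicate block (against 10.6%).

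Acadl encodes the long-chain acyl-CoA dehydrogenase. It measured 6.37, 6.30, 6.31 and 6.48 in RV, 6.58, 6.63 and 6.71 in LV and 6.54, 6.58 and 6.55 in Septum. All RV arrays were below all others. Its difference from LV was -0.27 (interval -0.44 to -0.11, adjusted p = 0.0710), and -0.28 (adjusted p = 0.0156) with the slide as a block. Acads encodes the short-chain dehydrogenase, and its levels shifted with the slide by 0.28 (adjusted p = 0.00809). It was 4.32, 4.32, 4.51 and 4.68 in RV, 4.60, 4.68 and 4.89 in LV and 4.33, 4.59 and 4.79 in Septum. The regions overlapped over both slides, whereas the RV to LV difference was -0.32 on slide 1 and -0.29 on slide 2. Without the block it was -0.27 (adjusted p = 0.317) and with it -0.31 (adjusted p = 0.0241).

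Hadhb encodes the thiolase subunit of the mitochondrial trifunctional protein. Its levels were 7.82, 7.86, 7.91 and 7.99 in RV, 8.14, 8.09 and 8.09 in LV and 8.12, 8.13 and 8.11 in Septum. RV was below the 6 other arrays, which spanned only 8.09 to 8.14. The difference was -0.21 (interval -0.36 to -0.06, adjusted p = 0.116) from LV and -0.23 (-0.38 to -0.07, adjusted p = 0.152) from Septum. With the slide as a block these became -0.22 (adjusted p = 0.0261) and -0.23 (adjusted p = 0.0340), and its dimmer second probe gave -0.17 (adjusted p = 0.0823) against LV. Hadha, the partner subunit with hydratase and dehydrogenase activity, differed from LV by -0.12 (-0.43 to 0.18) and was not called. It measured 4.40, 4.37, 4.03 and 4.22 in RV and 4.60, 4.42 and 4.11 in LV, overlapping.

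The 2 subunit genes lie head to head, with RefSeq starts 273 bases apart, so that 228 bases of their upstream windows are the same DNA read from opposite strands. The window before Hadhb (GRCm38.p6, chr5:30155003-30155252, plus strand) is shown for this shared stretch, with the GC box letters GGGCGG, sought on both strands, in capitals. The shared stretch is the first 228 of the 250 bases shown, and the second match runs past its end.
Hadhb upstream: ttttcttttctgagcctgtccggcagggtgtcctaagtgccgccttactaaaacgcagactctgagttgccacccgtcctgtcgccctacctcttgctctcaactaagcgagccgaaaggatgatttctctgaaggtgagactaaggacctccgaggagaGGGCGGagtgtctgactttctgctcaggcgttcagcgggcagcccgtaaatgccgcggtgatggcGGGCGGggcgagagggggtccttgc
These letters were found in 19 of the 33 windows (57.6%) and in 32.7% of all windows. Hadhb, called only with a block, and Hadha, not called, had most of this window in common. Whether their differences between regions were unequal was not tested.

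The remaining steps of the spiral were closer to 0. Acadvl, the very-long-chain dehydrogenase, differed by -0.17 (interval -0.32 to -0.02), with all RV arrays below all LV arrays. Acadm, the medium-chain enzyme, also differed by -0.17 (-0.38 to 0.04) with overlap. Echs1, the short-chain hydratase, differed by -0.15 (-0.35 to 0.04), Hadh, the short-chain hydroxyacyl-CoA dehydrogenase, by -0.07 (-0.33 to 0.18), and Acaa2, the terminal thiolase, by -0.03 (-0.26 to 0.20). None of these 5 passed with a block either.

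On the side of uptake, 3 of 6 tested genes had a lower and 3 a higher mean in RV than in LV. Cd36, the main fatty acid transporter of the muscle cell surface, measured 5.33, 5.29, 5.08 and 5.23 in RV. It measured 5.49, 5.43 and 5.51 in LV and 5.43, 5.45 and 5.43 in Septum. The RV arrays were below all others, and LV and Septum met. The difference from LV was -0.25 ± 0.08 (SE, adjusted p = 0.112), and -0.24 (adjusted p = 0.0376) with the slide as a block. Lpl, the lipase that frees fatty acids at the vessel wall, was 8.03, 8.09, 7.94 and 8.15 in RV and 8.22, 8.24 and 8.38 in LV. These groups did not overlap, yet the difference of -0.23 (interval -0.43 to -0.03) was called neither without (adjusted p = 0.191) nor with the slide as a block (adjusted p = 0.0637). A second Lpl probe was called with that block (-0.30, adjusted p = 0.0359), and another had a Septum to LV difference of opposite sign (0.11 beside -0.07).

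The cytosolic carriers showed no call. Fabp3, the heart type, differed by 0.02 (interval -0.38 to 0.41) and was among the genes that shifted most between slides, by 0.39 (adjusted p = 0.00468). Fabp4, the type shared by adipocytes, endothelium and macrophages, differed by -0.24 (-0.57 to 0.08), and Fabp5, a related carrier of endothelium and immune cells, by 0.23 (-0.09 to 0.56). Fabp5 read 5.02 and 5.04 on RV arrays 1 and 2 and 4.51 and 4.69 on RV arrays 3 and 4, beside 4.52 to 4.65 in LV. The high values thus belonged to the RV arrays of slide 1, where the difference was 0.42, against 0.08 on slide 2. Slc27a1, a transport protein with synthetase activity, differed by 0.04 (-0.36 to 0.44).

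The acyl-CoA synthetases did not move together. Acsl1, the main long-chain form of the heart, was 6.74, 6.85, 6.70 and 6.82 in RV, 7.06, 6.99 and 6.99 in LV and 6.83, 6.97 and 6.85 in Septum. RV lay below LV and overlapped Septum. The difference from LV was -0.24 ± 0.07 (SE, adjusted p = 0.109), -0.23 (adjusted p = 0.0342) with the slide as a block and -0.25 (adjusted p = 0.0409) with the replicate block, and a second probe was called with the slide as a block too (-0.28, adjusted p = 0.0149). Acsl5, a form known from intestine and liver, was 0.27, 0.34, 0.20 and 0.36 in RV, 0.07, 0.04 and 0.13 in LV and 0.13, 0.12 and 0.16 in Septum. RV lay above both other regions. Its difference from LV was 0.21 ± 0.07 (SE, adjusted p = 0.123), and it was 0.21 (adjusted p = 0.0363) with the slide as a block. Acsl4, which prefers arachidonic acid, differed by 0.11 (interval -0.05 to 0.28). Acsl3, a form tied to lipid droplets, differed by 0.08 (-0.53 to 0.69), the widest interval after Pdk4, and 1 of its 2 probes was well above background on no array.

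The auxiliary enzymes for unsaturated chains, Eci1, Eci2 and Decr1, had differences of -0.09, -0.11 and -0.12 from LV, and none was called in any comparison. In the transfer of electrons to ubiquinone, Etfdh, the oxidoreductase of the inner membrane, was 6.63, 6.53, 6.41 and 6.48 in RV and 6.95, 6.72 and 6.58 in LV. The groups overlapped across slides, and the difference of -0.23 (interval -0.47 to 0.00, adjusted p = 0.256) was -0.20 (adjusted p = 0.0812) with the slide as a block. Etfa and Etfb, the 2 subunits of the flavoprotein, differed by -0.18 (-0.34 to -0.02) and 0.04 (-0.16 to 0.23), with no call, and the second Etfb probe had the other sign (-0.01).

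Of the thioesterases, which release free fatty acids from acyl-CoA, Acot2, the mitochondrial form, was lower in RV with a block. It measured 3.17, 3.10, 3.25 and 3.37 in RV, 3.53, 3.37 and 3.81 in LV and 3.42, 3.36 and 3.71 in Septum. RV array 4 overlapped the other regions, while on each slide alone the RV arrays were the lowest. The RV to LV difference was -0.35 (interval -0.64 to -0.06, adjusted p = 0.168) without and -0.40 (adjusted p = 0.00815) with the slide as a block, and against Septum it was -0.27 (adjusted p = 0.382) and -0.32 (adjusted p = 0.0259). Acot1, the cytosolic form, differed from LV by 0.02 (-0.24 to 0.28), and Acot13, a form bound to mitochondria, by -0.18 (-0.43 to 0.08). Acot1 and Acot2 are near-identical neighbours in sequence, the files hold no probe sequences, and the specificity of their probes was not tested.

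Against Septum, 0 of 37 genes passed (limma), beside 2.7% of all genes. An unadjusted p below 0.05 was reached by 7 of 37 genes, beside 2390 of 14651 genes. The median difference was -0.07, beside -0.04 over all genes. The lower mean was in RV for 26 of 37 genes (70.3%), beside 59.2% of all genes. All RV arrays lay below all Septum arrays for 5 genes (Cd36, Cpt1b, Acadl, Acadvl and Hadhb, 13.5% against 9.04% of all genes) and above them for Acsl5, Cpt1a and Ucp3 (8.11% against 6.95%). With the slide as a block, Cpt1b, Hadhb and Acot2 were called lower (8.11%, against 5.71% of all genes) and Ucp3 higher (2.70%, against 5.34%). With the replicate block Hadhb and Acot2 were lower (5.41%, against 4.52% of all genes) and Ucp3 higher (against 4.18%). The 2 comparisons share the RV arrays and are not independent.

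Septum and LV were the closest pair by calls over all genes. By the median of the 37 genes they were not, once the slide was a block (-0.06, beside -0.05 for RV against Septum). The Septum to LV difference was below 0 on both slides for 29 of the 37 genes. No gene of the pathway was called, with or without a block, and 0% of all genes passed without a block. An unadjusted p below 0.05 was reached by 0 of 37 genes, beside 427 of 14651 genes. The median difference was -0.06, beside -0.02 over all genes. The lower mean was in Septum for 32 of 37 genes (86.5%), beside 58.1% of all genes. The single differences ran from -0.17 for Ppargc1a to 0.25 for Acsl3, and the interval of each of the 37 contained 0. All Septum arrays lay below all LV arrays for Acsl1, Acadl and Etfa (8.11%, beside 552 of 14651 genes). They lay above for 0 of the 37 genes, beside 534 of 14651. The median interval width was 0.50 for this pair and 0.47 for RV against Septum. When the 3 regions were compared at once by the moderated F test, 0 of 37 genes passed, with Ucp3 (adjusted p = 0.0553) and Cpt1b (0.0835) closest.

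The pathway reaches beyond the 38 genes, and 75 of 82 further genes of fatty acid, ketone and fuel metabolism passed the filter on dim probes. Between RV and LV 3 of them were called higher and 6 lower in RV, with a median difference of -0.17, and 60 of 75 had the lower mean in RV (against 60.6% of all genes, whose median was -0.05). The calls over all genes were 3.13% higher and 1.84% lower. The slide block called 5 of the 75 higher and 26 lower (against 8.79% and 12.5% of all genes), and with the replicate block 6 and 19 (against 7.26% and 10.6%). By list, the calls without a block fell on 0 of 6 lipase partners, 1 of 7 further uptake and activation genes, 0 of 6 carnitine genes, 1 of 12 mitochondrial oxidation genes, 0 of 16 peroxisomal genes, 2 of 3 ketone body genes, 2 of 19 genes of transcription and signalling, and 3 of 6 genes of the pyruvate dehydrogenase kinase and uncoupling protein families. The largest of these differences was that of a ketone body gene. Bdh1, the mitochondrial dehydrogenase that begins the use of 3-hydroxybutyrate, was 3.08, 3.58, 3.71 and 3.13 in RV and 4.76, 5.15 and 4.65 in LV. The groups were far apart, with a difference of -1.48 ± 0.21 (SE, 2.78-fold lower, adjusted p = 0.00756) from LV and -1.07 (adjusted p = 0.0403) from Septum. Oxct1, the enzyme that activates acetoacetate, differed by -0.29 (adjusted p = 0.0449) from LV. Its call was lost in each of the 10 fits that left out 1 array.

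Relatives of the called genes differed in sign among themselves. Ucp2, the widely expressed uncoupling protein, was 0.79 higher in RV than in LV (adjusted p = 0.0222), as Ucp3 was. Pdk1 fell by 0.47 (adjusted p = 0.00745), Pdk3 rose by 0.88 (adjusted p = 0.0121) on a probe that was well above background on 8 of 10 arrays (0.40 with normexp background correction, adjusted p = 0.0402), and both regulate pyruvate dehydrogenase as Pdk4 does. Acsl6, a synthetase known from brain, rose by 0.46 (adjusted p = 0.0244). Esrrg, an orphan nuclear receptor of mitochondrial genes, fell by 0.41 (adjusted p = 0.0141), Acad11 by 0.32 (adjusted p = 0.0499) and Rxrg, an RXR partner, by 0.29 (adjusted p = 0.0356). Against Septum, Bdh1 and Pdk1 (-0.37, adjusted p = 0.0294) were called lower. When 1 array at a time was left out, the call against LV held in all 10 fits for Bdh1 and Pdk1, in 9 for Pdk3, 8 for Esrrg, 7 for Ucp2, 6 for Acsl6, 1 for Acad11 and 0 for Rxrg. Against Septum, that of Bdh1 held only without RV array 3, and that of Pdk1 only without RV array 3, LV array 1 or LV array 3.

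**Figure D3:**
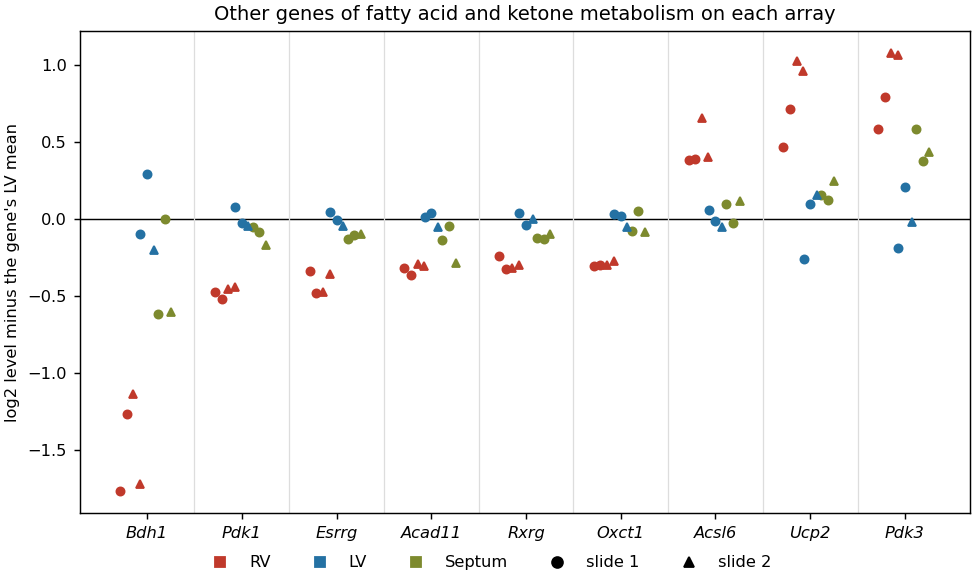
Log2 level minus the gene's mean in LV for the 9 further genes of fatty acid, ketone and fuel metabolism called between RV and LV; each point is 1 array, coloured by region and shaped by slide. Bdh1 lies far below LV in RV, and Ucp2, Pdk3 and Acsl6 lie above it on all 4 RV arrays.

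Markers of other tissue moved with the regions, and their part in the differences above was not tested. Between RV and LV, 3.13% of all genes were called higher without a block, 8.79% with the slide as a block and 7.26% with the replicate block. The shares called lower were 1.84%, 12.5% and 10.6%. Between RV and Septum, 2.7% were called in either direction without a block. The mean deviation of 10 adipocyte markers from their gene means was 1.09 to 1.57 on the RV arrays, -2.12 to -1.04 in LV and -0.71 to 0.51 in Septum, and 7 of the 10 were called higher in RV than in LV, among them Cidec by 4.24 and Car3 by 4.93. Of 7 brown adipocyte markers 3 passed the filter, of which 0 were called without a block or with the slide as a block and 1 was called lower in RV than in LV with the replicate block, and Ucp1 did not pass. The 7 mesothelial markers lay at 0.52 to 2.04 in RV, -0.64 to 0.14 in LV and -2.86 to -0.92 in Septum, and 6 of the 7 were called higher in RV than in Septum. Against LV 0 of the 7 were called without a block, 6 with the slide as a block and 4 with the replicate block, at a median difference of 1.87. Only 2 of the 7 mesothelial and 7 of the 10 adipocyte markers were well above background on all 10 arrays. The rest passed the filter through the regions where they were high and were not well above background on other arrays. The means and call counts of these 2 lists rest in part on them. The 8 fibroblast markers lay at 0.02 to 0.52, -0.41 to -0.18 and -0.17 to 0.09, with 3 called higher in RV than in LV without a block and 5 with the slide as a block. No endothelial, macrophage, atrial or blood marker was called between RV and LV without a block, where the list medians were -0.04, 0.31, 0.25 and -0.17. The slide block called 2 of 10 endothelial markers higher and 3 lower, 2 of 10 macrophage markers higher (4 with the replicate block), 1 of 5 atrial markers lower and 0 of 4 blood markers. All 10 macrophage markers had the higher mean in RV. The 13 cardiomyocyte markers were at -0.15 to -0.02 in RV, 0.04 to 0.20 in LV and -0.06 to 0.16 in Septum, and their median RV to LV difference was -0.20. Of these, Mybpc3 (-0.47, adjusted p = 0.00893) and Tnnc1 (-0.38, adjusted p = 0.0283) were called lower without a block, and 12 of the 13 had the lower mean in RV, the exception being Myl2. Each of the 2 blocks called 6 of the 13 lower, a larger share than the 7 of the 37 genes of fatty acid use (18.9%). The 37 genes of fatty acid use, measured the same way, lay at -0.12 to -0.01 in RV, 0.03 to 0.08 in LV and -0.05 to 0.04 in Septum.

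**Figure D4:**
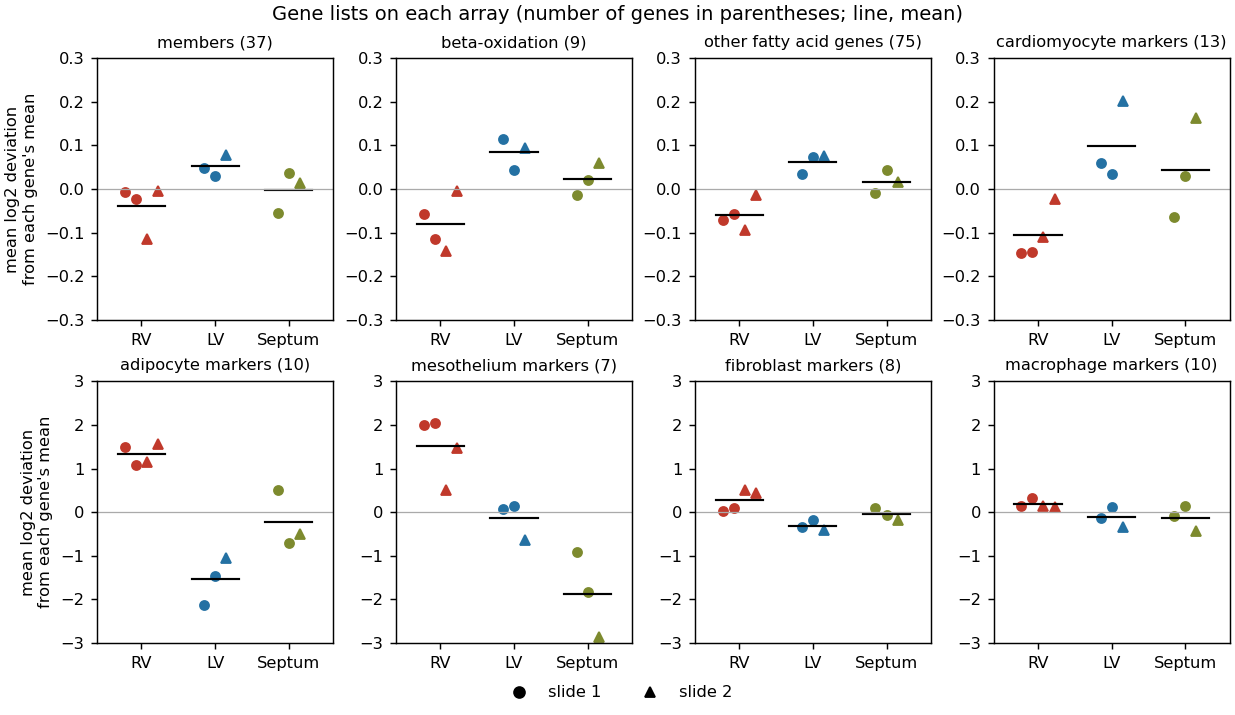
Mean log2 deviation of each list's tested genes from the genes' own means over 10 arrays, per array, by region and slide; the upper row spans -0.3 to 0.3 and the lower row -3 to 3. The fatty acid genes and the cardiomyocyte markers lie slightly lower in RV than in LV, and the adipocyte markers lie far higher in RV.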

How the data were processed

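Total RNA of RV, LV and Septum tissue was labelled with Cy3 and hybridised to Agilent mouse arrays of 1 colour, 10 in all. Intensity values were produced by the authors in Agilent Feature Extraction (version 11.5.1.1, per the submitters' processing notes), with background subtraction and spot flags, and deposited without scaling between arrays. The authors also deposited a log2 table scaled to the 75th percentile, which served as an alternative. It matched the values computed here within 0.05 once a constant was removed.

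Here log2 of the processed signal was taken, control spots and outlier spots were left out, spots of a probe were averaged and each array's 75th percentile was subtracted. A probe was kept if all arrays of 1 region or more had it well above background (30240 of 56605). Symbols came through RefSeq accessions (58.3% of probes), and each gene was given by its brightest kept probe. The 3 region means were estimated jointly from the 10 arrays with limma (version 3.58.1, R 4.3.3), with Benjamini-Hochberg adjustment over all kept probes and a threshold of 0.05. All tests were two-sided. The fit was tested on simulated data whose arrays were independent and had no slide effect, unlike the arrays here. That test therefore does not show how the fit behaves under shifts between slides. The number of arrays limits the precision, and intervals are 95% confidence intervals.

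Genes, lists and alternatives were chosen with earlier results of these data known. All 38 genes are named. Those called get their value on every array, and genes called only with a block get both fits. Of the further genes of the pathway, those called are named, at most 10 per comparison by size. Some genes of these lists are not reported here.

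Same-numbered arrays of different regions deviated together from their region means (correlations of 0.36 to 0.64 over 9 pairs, against 0.09 to 0.58 for other pairs on the same slide and -0.56 to -0.21 across slides), so the replicate number was also fitted as a block. The labels do not say what the numbers share. Alternatives were other scalings and background corrections (normexp with an offset of 50, on the median signal because the mean signal is not used here), filters, blocks, single slides, arrays left out, probes averaged, and the study's own test, an analysis of variance followed by Tukey's correction. Promoter windows are from RefSeq (GRCm38.p6), whose build differs from that of the array design, so no other coordinates are given.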

Additional observations from a re-analysis of the deposited data

Results flagged for a closer look

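Echs1, the short-chain enoyl-CoA hydratase, had 1 RV array apart from the other 3. Its levels in RV were 5.97, 5.96, 5.70 and 5.96, and the gap below RV array 3 made up 0.960 of the range, above the 95% limit of Dixon's test for 4 values. It was the only 1 of the 37 genes with such a gap in RV, and chance alone gives it in about 1 in 20 groups. The dimmer Echs1 probe read 2.36, 2.35, 2.26 and 2.28 on the same arrays. Leaving out 1 array at a time moved the RV to LV difference of Echs1 between -0.19 and -0.09. RV array 3 also had the lowest mean deviation of the 37 genes (-0.12), and their median RV to LV difference was -0.11 without it, beside -0.04 over all genes. The cause was not tested.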

How the results depend on the processing

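With the replicate number as a block 8 of the 37 genes were called between RV and LV, 3 between RV and Septum and 4 over the 3 regions. With the slide as a block the counts were 9, 4 and 5, against 2, 0 and 0 without a block. Quantile normalization gave 1 call between RV and LV and a median difference of -0.083 in place of -0.14. The median over all genes was then -0.025 in place of -0.05. Scaling by the probes detected on all arrays gave 1 call there, 1 over the 3 regions and a median of -0.088. The median over all genes moved with it to 0.0025, so the gap between these medians stayed at -0.09. Scaling by the median gave 1 call between RV and LV, 1 between RV and Septum and 1 over the 3 regions, with a Septum to LV median of -0.12 in place of -0.06. The median over all genes was not taken for that Septum to LV fit. Without a filter, and on slide 1 alone, 0 genes were called between RV and LV. On slide 2 alone, with a single LV and a single Septum array, the RV to Septum median was -0.13, beside -0.04 over all genes. The filter on every array gave 1 call over the 3 regions. In the same order, the analysis of variance gave 9, 8 and 10 calls unadjusted and 1, 1 and 1 after Benjamini-Hochberg adjustment. No share over all genes is given here for this test or for calls over the 3 regions, so these counts show no trait of the pathway. An unadjusted limma p below 0.05 was reached by 11 of 37 genes against LV, beside 3336 of 14651. Against Septum it was reached by 7 of 37, beside 2390 of 14651. Leaving out 1 array gave 0 to 2 calls between RV and LV. Septum against LV had 0 calls under each alternative, and no difference of a named gene of fatty acid, ketone or fuel metabolism that was called, without a block or with the slide as a block, changed sign. Of the 37 genes, 9 had an RV to LV difference that changed sign under 1 alternative or more, each of 0.12 or less in size (Fabp3, Slc27a1, Acsl3, Slc25a20, Hadha, Hadh, Acaa2, Etfb and Acot1). Those of Fabp3, Slc27a1 and Acot1 were -0.05, -0.01 and -0.0047 with the slide as a block. Of all calls between RV and LV, 63.0% were higher in RV, against 77.0% with the scaling by probes detected on all arrays and 41.3% with the slide as a block, and between RV and Septum 62.3%, against 75.4% with scaling by the median. The cause of these shifts was not tested. With 4, 3 and 3 arrays, an unblocked 95% interval of a difference was typically 0.47 wide for RV against LV.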

Other observations

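Ratios of paired isozymes within an array do not depend on a constant subtracted from all its log2 levels. Quantile normalization or another background correction can change them, which was not tested. Here 3 such ratios, chosen after the single values were seen, are given relative to their mean in LV. They show unequal differences and no ratio of RNA amounts. The log2 ratio of Cpt1a to Cpt1b lay at 0.66, 0.85, 0.66 and 0.75 on the RV arrays, -0.11, 0.17 and -0.06 in LV and 0.10, 0.14 and -0.03 in Septum. That of Acsl5 to Acsl1 lay at 0.46, 0.42, 0.44 and 0.46 in RV, -0.06, -0.02 and 0.07 in LV and 0.23, 0.08 and 0.25 in Septum. In both ratios all RV arrays were above all others. For Acot1 to Acot2 the RV values of 0.39, 0.51, 0.17 and 0.40 were above LV (-0.07 to 0.11), and RV array 3 fell within the range of Septum (-0.04 to 0.17). Because the pairs were chosen from these values, no test is given.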
